A study of Mus musculus with 10 samples.

Results

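The AP-1 and Egr immediate early factors described here are 10 transcription factor genes chosen by name: the Fos genes *Fos*, *Fosb*, *Fosl1* and *Fosl2*, the Jun genes *Jun*, *Junb* and *Jund*, and the Egr genes *Egr1*, *Egr2* and *Egr3*. All 10 have a row among the 55453 gene symbols of the count table, and all 10 were among the 14614 genes with enough counts to be tested. The libraries came from whole aortae of male C57BL/6 mice, 5 young mice aged 14.5 weeks and 5 old mice aged 92.5 weeks. Every library holds the RNA of 1 aorta, taken after saline perfusion and removal of the surrounding fat.

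AP-1 is a pair of proteins joined through leucine zippers, either a Fos protein with a Jun protein or a pair of Jun proteins, whereas Egr proteins bind GC-rich DNA through zinc fingers. Most of these genes are held ready for use and are transcribed within minutes of growth factors, stretch or injury, without the need for new protein, and their RNAs are short-lived. In arteries, *Fos*, *Jun* and *Egr1* are known for their quick response to injury and altered flow, and *Jund* is known as the member with the steadiest level.

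Reads counted on genes numbered 19.6 M to 22.9 M per library, and *Fosl1*, with 10 to 59 reads per library, was the only member measured with fewer than 49 reads in any library. Levels of single genes are normalized counts, that is reads divided by the size factor of the library, and they are given as mean ± SD over 5 mice. Old replicate 2 stood apart in its share of reads from the mitochondrial genome, with 11.0%, whereas the other old libraries had at most 6.51% and the young libraries at most 6.22%. Old replicate 3 had the largest summed level of 8 macrophage marker genes, with 13108 normalized counts against 6956 to 8314 in the other old libraries. Calls of the members that change without a single library are therefore given with and without it.

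Old and young aortae were compared with the quasi-likelihood test of edgeR, which gives a log2 fold change (old over young), its standard error (SE) and a p adjusted over all tested genes. At an adjusted p below 0.05, 1 of the 10 members rose with age (*Junb*) and 3 fell (*Fosb*, *Fosl2* and *Jund*). Across all tested genes, 6.48% were called higher, 4.99% lower and 11.5% in either direction. The same 4 members were those whose old and young values did not overlap, which 9.92% of all tested genes showed. Since each library is a whole aorta, fewer cells of a type and less RNA per cell cannot be told apart. The members did not move as a block, since 5 had a positive and 5 a negative log2 fold change, with a median of -0.15 against 0.00339 over all tested genes.

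**Figure D1:**
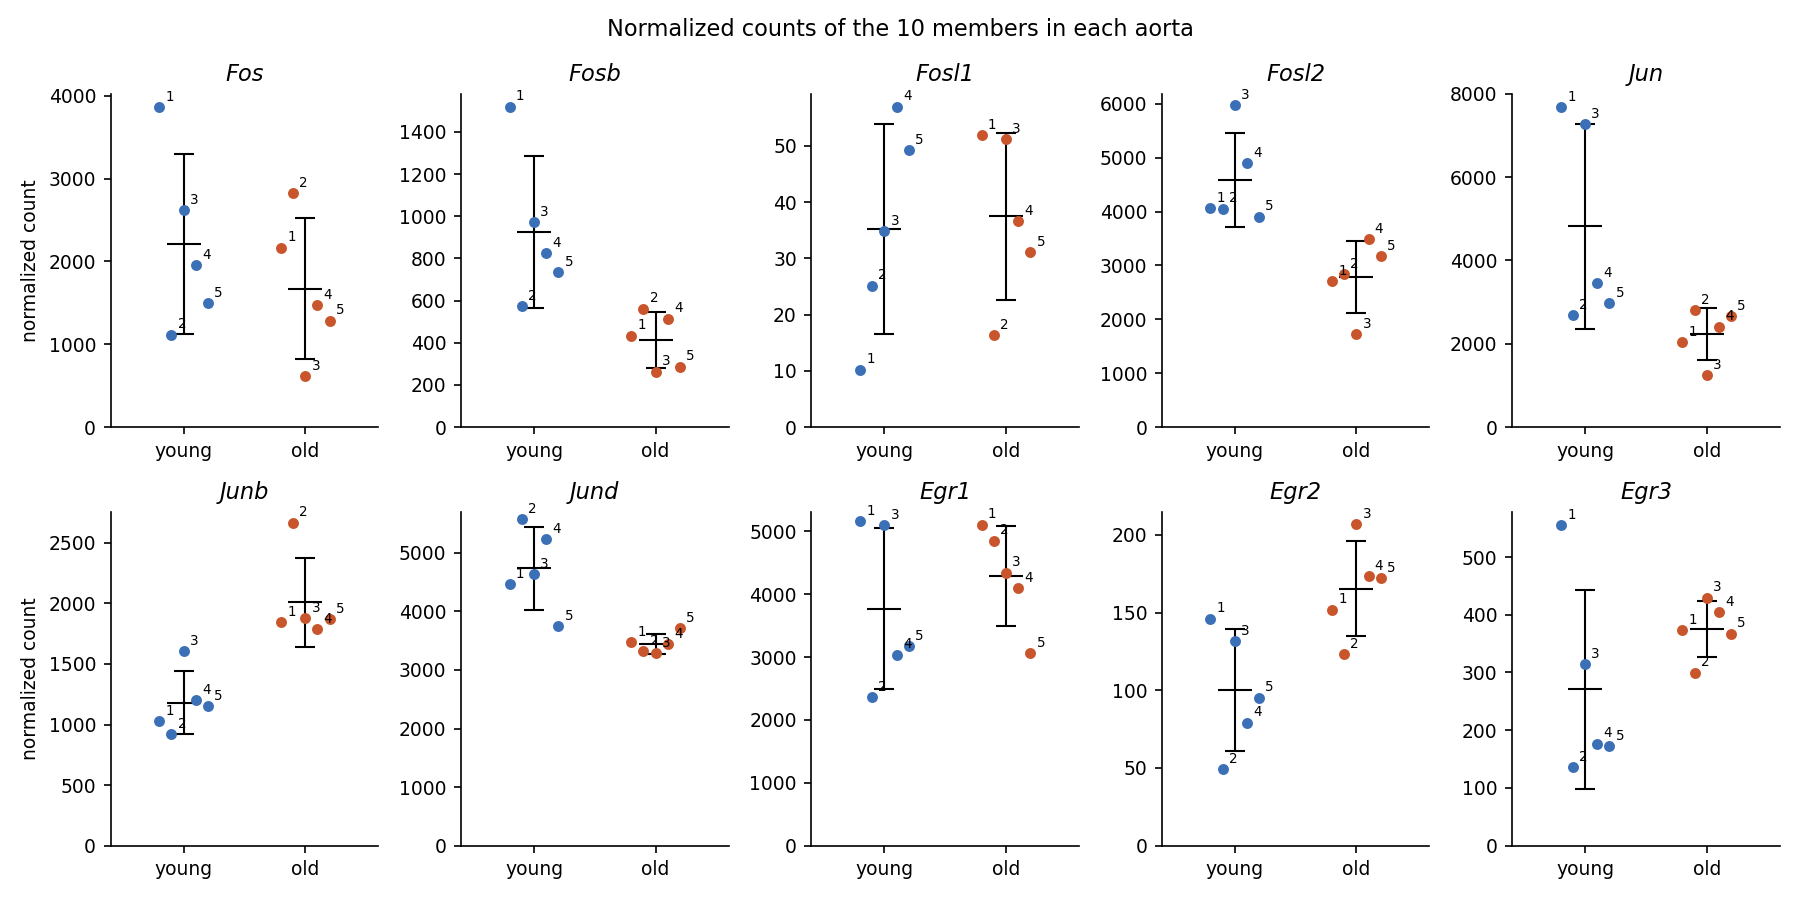
Normalized counts (y axes, linear, from 0) of each member in the 5 young and 5 old aortae, with the replicate number beside each point and the mean with SD as a black bar. *Junb* lies higher in all old than in all young aortae, *Fosb*, *Fosl2* and *Jund* lie lower, and the groups of the other 6 members overlap.

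Among the Fos genes, *Fosb* (chromosome 7, 19302696 to 19310051 on GRCm38, minus strand) codes for a close relative of Fos whose shortened splice form persists for long in cells. Its normalized counts were 1519, 576, 973, 825 and 736 in young replicates 1 to 5. They were 434, 562, 264, 515 and 287 in old replicates 1 to 5. The highest old aorta thus lay just below the lowest young one, with a gap smaller than the spread in either group. *Fosb* fell from 926 ± 362 to 412 ± 133 (log2 fold change -1.16, SE 0.30, edgeR adjusted p = 0.0337). The direction held in all 18 alternative fits, but the call was lost in 6 of them. In edgeR the adjusted p was 0.0607 without young replicate 3, 0.0626 without young replicate 4, 0.0646 without old replicate 1, 0.0776 without old replicate 3, 0.0774 without old replicate 5 and 0.0862 without the low-count filter.

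*Fosl2* (chromosome 5, 32135801 to 32157842, plus strand) codes for Fra-2, a Fos protein without the strong activating tail of Fos. Young replicates 1 to 5 had 4065, 4052, 5977, 4893 and 3908 normalized counts. Old replicates 1 to 5 had 2704, 2845, 1723, 3493 and 3176. Every old aorta lay below every young one, with old replicate 3 the lowest and young replicate 3 the highest. *Fosl2* fell from 4579 ± 873 to 2788 ± 669 (log2 fold change -0.71, SE 0.18, edgeR adjusted p = 0.0309). The call was lost in 5 of the 18 alternatives, with an edgeR adjusted p of 0.0548 without young replicate 3, 0.0732 without young replicate 4, 0.0633 without old replicate 1, 0.0565 without old replicate 2 and 0.101 without the low-count filter.

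*Fos* (chromosome 12, 85473890 to 85477273, plus strand) is the prototype of the immediate early genes. Its young values were 3864, 1118, 2621, 1952 and 1494 normalized counts in replicates 1 to 5. Its old values were 2168, 2824, 613, 1472 and 1287. The groups overlapped widely, and the highest aorta held 3.46 times the lowest among the young and 4.61 times among the old. The means were 2209.8 ± 1081 in young and 1673 ± 849 in old aortae, and the log2 fold change of -0.39 (SE 0.44, edgeR adjusted p = 0.626) was called in none of the 18 alternatives. Its size depended on single mice, from -0.10 without young replicate 1 and -0.18 without old replicate 3 to -0.67 without old replicate 2.

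*Fosl1* codes for Fra-1, which is known for its rise in proliferating and migrating cells. It had a mean of 35.3 ± 18.7 in young and 37.5 ± 14.9 in old aortae (log2 fold change 0.10, SE 0.40, edgeR adjusted p = 0.908). Of its exonic sequence, 57.2% lies opposite *Ccdc85b* on the other strand, which had 760 to 1825 reads per library and rose by 0.74 on the log2 scale (SE 0.11, edgeR adjusted p = 0.00146). The strand setting of the counting is not given in the sources used here, so that reads of both genes cannot be told apart and the level of *Fosl1* is uncertain.

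Among the Jun genes, *Junb* (chromosome 8, 84974484 to 84978718, minus strand) codes for a Jun protein that activates less strongly than Jun and can restrain it. Young replicates 1 to 5 had 1026, 921, 1603, 1200.3 and 1155 normalized counts. In old replicates 1 to 5 the values were 1844, 2668, 1876, 1785 and 1873. All old aortae lay above all young ones, and 4 of the old values fell within a narrow band, with old replicate 2 well above it. *Junb* rose from 1181 ± 260.3 to 2009 ± 369.8 (log2 fold change 0.77, SE 0.16, edgeR adjusted p = 0.00957). It was called in all 18 alternatives (adjusted p 1.82e-05 to 0.0361), and without old replicate 2 the log2 fold change was 0.65 (edgeR adjusted p = 0.0118). Of its exonic sequence, 7.52% lies opposite *Prdx2*, which had 1859 to 2946 reads per library and was not called (log2 fold change 0.09, SE 0.07, edgeR adjusted p = 0.488).

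*Jund* (chromosome 8, 70698949 to 70700616, plus strand) codes for the Jun protein that resting cells hold at a steady level and that can slow proliferation. Its young values were 4461, 5581, 4639, 5239 and 3753 normalized counts in replicates 1 to 5. Its old values were 3478, 3317, 3281, 3441 and 3711. The old aortae lay within a narrow range below all young aortae, although old replicate 5 nearly reached young replicate 5. *Jund* fell from 4735 ± 710.2 to 3445 ± 169.7 (log2 fold change -0.45, SE 0.09, edgeR adjusted p = 0.00723) and was called in all 18 alternatives (adjusted p 0.000136 to 0.0231). Of its exonic sequence, 52.6% lies opposite *Gm11175*, a gene on the other strand with 29 to 77 reads per library, so that its level and its share of the Jun genes carry the same doubt about the strand setting as *Fosl1*.

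*Jun* (chromosome 4, 95049034 to 95052222, minus strand) codes for the main partner of Fos in AP-1. Young replicates 1 to 5 had 7686, 2681, 7272, 3455 and 2985 normalized counts. Old replicates 1 to 5 had 2039, 2807, 1257, 2414 and 2668. Young replicates 1 and 3 held more than 2 times the level of any other aorta, and the remaining 3 young aortae lay close to the upper old ones. The means were 4816 ± 2451 and 2237 ± 620.7, and the difference (log2 fold change -1.10, SE 0.36, edgeR adjusted p = 0.0845) did not pass the threshold. Of the 18 alternatives only DESeq2 called it (adjusted p = 0.0280). Of its exonic sequence, 7.28% lies opposite *Junos*, which had 7 to 22 reads per library.

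The Egr genes were not called by edgeR, with 0 of 3 past the threshold and 1 (*Egr2*) at an unadjusted p below 0.05, at which 2054 of the 14614 tested genes were higher and 1848 lower. DESeq2 and limma-voom each called 1, and limma-voom with sample quality weights called 2. Among all genes these fits called 1240, 954 and 1432 higher, in this order, against 947 with edgeR. *Egr1*, the most abundant of them and a quick responder to stretch and injury in the vessel wall, had 5166, 2363, 5095, 3037 and 3170.1 normalized counts in young replicates 1 to 5. In old replicates 1 to 5 it had 5105, 4850.2, 4342, 4099 and 3067. The young aortae fell into a high pair and a low group, and the old aortae lay between the extremes of the young. The log2 fold change was 0.20 (SE 0.23, edgeR adjusted p = 0.642), from 3766 ± 1283 in young to 4293 ± 792 in old aortae, and it was 0.06 when young replicate 2 was left out and 0.34 when young replicate 1 was.

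*Egr2*, a factor known for its part in myelination and in immune cells, had 146, 49.3, 132, 79.2 and 95.3 normalized counts in young replicates 1 to 5. In old replicates 1 to 5 it had 152, 123, 207, 174 and 172. Only old replicate 2 lay within the young range, and the log2 fold change was 0.73 (SE 0.25, edgeR adjusted p = 0.0777). *Egr3*, which is induced together with *Egr2* in lymphocytes, had 555, 136, 314, 177 and 172 normalized counts in young aortae and 374, 299.7, 429.7, 404 and 368 in old aortae, in the order of the replicates. Young replicate 1 exceeded every other aorta, whereas 3 young aortae lay below all old ones. The log2 fold change of *Egr3* was 0.48 (SE 0.35, edgeR adjusted p = 0.435). Of the edgeR fits without 1 mouse, only that without young replicate 1 called these genes, where the log2 fold change was 0.91 for *Egr2* (edgeR adjusted p = 0.0251) and 0.92 for *Egr3* (edgeR adjusted p = 0.0182). *Egr2* was called in 4 and *Egr3* in 2 of the 18 alternatives, always as higher in old aortae.

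**Figure D2:**
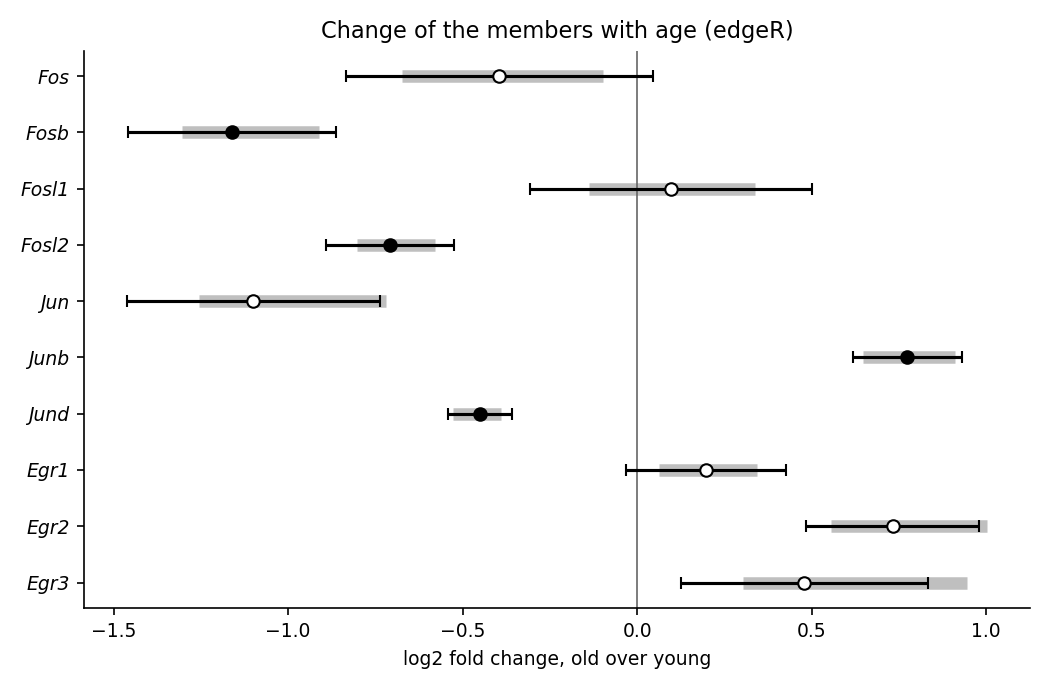
Log2 fold change, old over young, of each member (x axis) with its SE (bars), filled where the edgeR adjusted p is below 0.05, and the range over 18 alternative fits as a grey band. *Fosb* at -1.16 and *Jun* at -1.10 have similar estimates, but only the first passed, and the band of *Fosl1* alone crosses 0.

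Levels of different genes were compared per length, as TPM, that is reads divided by the merged exonic length and scaled to the same total in each library. *Jund* had the highest level of the 10 in both groups, with 455 ± 68.4 TPM in young and 327 ± 25.2 in old aortae. In young aortae *Jun* (242 ± 123 TPM), *Fos* (151 ± 74.4) and *Egr1* (135 ± 45.7) followed, and these neighbours did not differ beyond their spread. *Junb* (82.2 ± 17.5 TPM) and *Fosl2* (75.7 ± 13.9) came next and also lay within each other's spread, and *Fosb* (23.8 ± 9.43), *Egr3* (9.86 ± 6.36), *Egr2* (4.73 ± 1.85) and *Fosl1* (2.78 ± 1.48) were lowest. In old aortae *Egr1* (151 ± 25.5 TPM) and *Junb* (137 ± 18.7) stood above *Fos* (111 ± 52.4) and *Jun* (111 ± 29.7), with overlapping spreads among the 4. Some of this order depended on the length used. With the longest transcript, *Junb* (139 ± 21.1 TPM) lay above *Egr1* (120 ± 20.7) in old aortae. In young aortae *Fosl2* (88.3 ± 16.5) then lay above *Junb* (82.3 ± 17.7). *Jund* stayed highest, with 358 ± 53.4 in young and 259 ± 17.6 in old aortae.

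The makeup of the Jun genes differed between the ages. *Junb* made up 10.7% ± 2.31 of the summed Jun TPM in young aortae (8.07% to 13.6%) and 24.0% ± 3.24 in old aortae (up to 28.8%). *Jun* made up 29.9% ± 11.0 in young and 19.0% ± 3.97 in old aortae, and *Jund* 59.4% ± 10.9 and 57.0% ± 4.67. Because *Jund* held most of the Jun sum, its doubt about the strand setting extends to the other shares and to sums with *Jund*. Of all 7 Fos and Jun genes together, *Junb* held 8.12% ± 1.78 in young (at most 10.3%) and 18.6% ± 2.62 in old aortae (at least 16.6%), whereas *Fos* held 14.1% ± 4.48 and 14.5% ± 5.80. The summed TPM was 253 ± 86.5 in young and 170.3 ± 58.9 in old aortae for the Fos genes, 779 ± 131 and 575 ± 45.3 for the Jun genes, and 149 ± 53.2 and 172 ± 25.1 for the Egr genes, with overlapping ranges in each family.

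**Figure D3:**
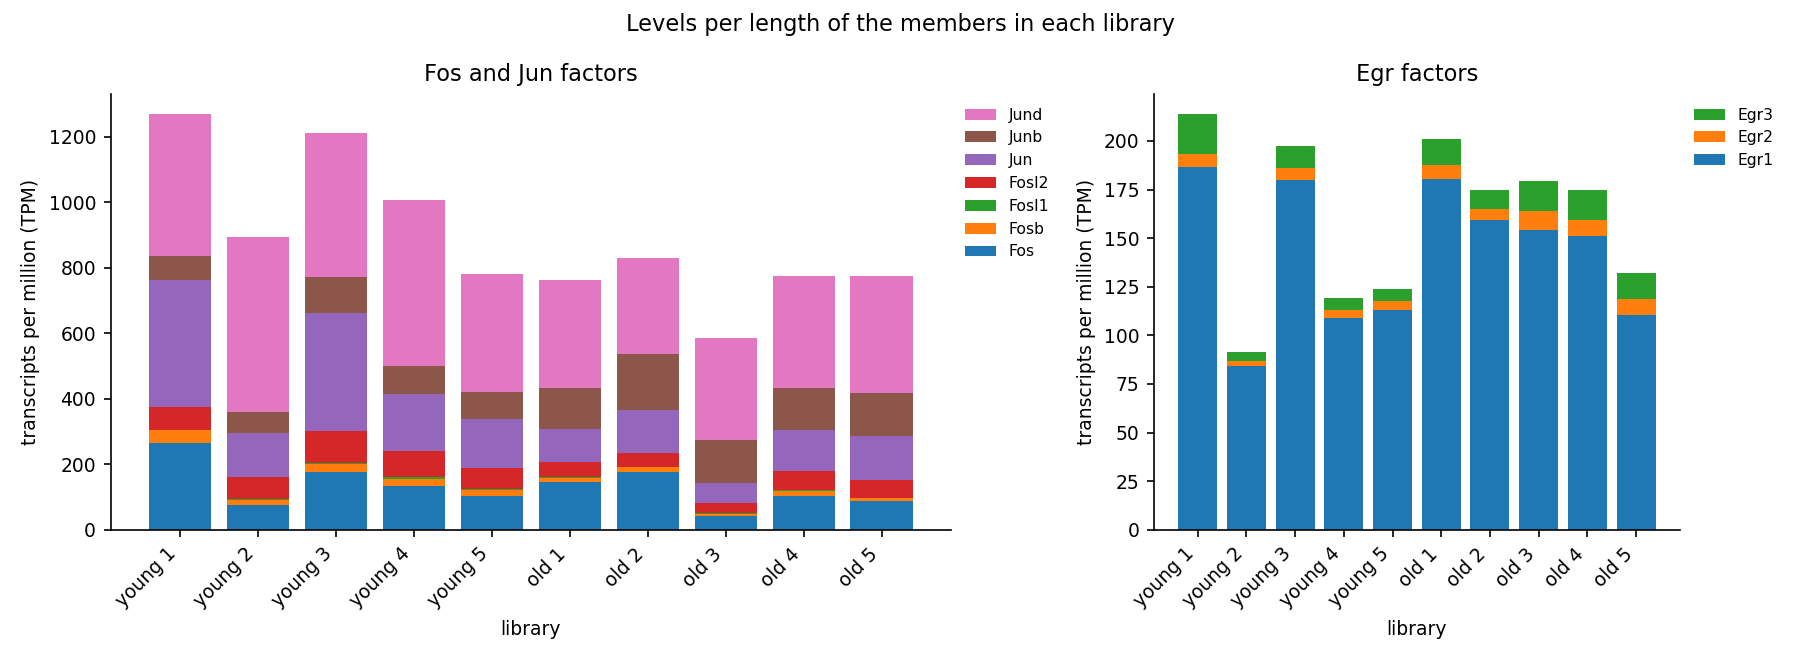
TPM of the members (y axes, linear, from 0), stacked for each of the 10 libraries (x axes), with Fos and Jun genes on the left and Egr genes on the right. The *Junb* band is wider in every old library than in any young one, and *Egr1* makes up at least 83.6% of the Egr total in each library.

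The promoters of *Fosb* and *Fosl2*, which fell, of *Junb*, which rose, and of *Fos*, which varied together with *Fosb*, are shown to let a reader compare their elements. RefSeq (GRCm38.p6) windows of 250 bases before to 50 bases after the start of transcription were used, and 7 of the 10 members had one. The motifs searched, on both strands, were TGACG, the core of the cAMP response element, TGACTCA, the AP-1 site, GCGNGGGCG, the Egr site, TATAAA and the CArG box of serum response factor, which can itself contain TATAAA. They occur in 20.8%, 5.20%, 5.55%, 13.6% and 1.63% of all 32851 windows, in this order. Capitals mark matches, and a match is a description of the letters in the window. The windows are chr7:19309996-19310295 (minus strand) for *Fosb*, chr5:32136222-32136521 (plus) for *Fosl2*, chr8:84978699-84978998 (minus) for *Junb* and chr12:85473640-85473939 (plus) for *Fos*.
Fosb: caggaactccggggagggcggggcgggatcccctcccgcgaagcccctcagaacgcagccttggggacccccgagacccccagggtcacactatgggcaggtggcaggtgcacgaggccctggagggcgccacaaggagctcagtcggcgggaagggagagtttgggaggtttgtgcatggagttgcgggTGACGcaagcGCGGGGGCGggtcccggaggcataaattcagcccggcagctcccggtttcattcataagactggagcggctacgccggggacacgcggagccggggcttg
Fosl2: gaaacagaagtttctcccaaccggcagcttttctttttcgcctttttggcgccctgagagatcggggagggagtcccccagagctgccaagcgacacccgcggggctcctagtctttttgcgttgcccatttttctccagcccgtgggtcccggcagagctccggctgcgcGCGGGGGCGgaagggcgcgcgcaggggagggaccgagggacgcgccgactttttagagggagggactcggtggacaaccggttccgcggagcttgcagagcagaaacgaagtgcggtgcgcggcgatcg
Junb: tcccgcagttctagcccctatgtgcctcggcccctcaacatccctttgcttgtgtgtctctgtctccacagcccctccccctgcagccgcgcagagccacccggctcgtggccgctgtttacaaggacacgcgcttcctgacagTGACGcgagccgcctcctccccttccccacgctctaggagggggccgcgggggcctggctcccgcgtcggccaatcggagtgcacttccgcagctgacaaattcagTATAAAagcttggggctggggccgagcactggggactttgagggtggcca
Fos: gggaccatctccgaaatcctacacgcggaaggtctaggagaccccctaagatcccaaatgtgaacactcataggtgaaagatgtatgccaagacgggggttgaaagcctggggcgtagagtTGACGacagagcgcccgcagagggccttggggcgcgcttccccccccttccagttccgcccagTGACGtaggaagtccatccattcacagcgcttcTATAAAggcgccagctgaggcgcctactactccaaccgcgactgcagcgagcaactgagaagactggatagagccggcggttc
The *Fos* window holds 2 matches of TGACG, at -129 to -125 and -66 to -62 from the start, and TATAAA at -33 to -28. *Fosb* holds TGACG at -60 to -56 and GCGGGGGCG at -50 to -42, and *Fosl2* holds GCGGGGGCG at -79 to -71. *Junb* holds TGACG at -106 to -102 and TATAAA at 1 to 6 from the RefSeq start. The RefSeq start of *Junb* lies upstream of the gene as placed above, and so does this TATAAA. The *Fosl2* window belongs to a RefSeq start that lies inside the gene as placed above, and the only *Jund* window ends before the gene as placed above, so that it is not described. The window of *Jun* holds no exact match of the 5 motifs, and 4 of the 5 *Egr2* windows hold a CArG box. *Egr2* windows at neighbouring starts overlap and share the same box, CCATATATGG, so that they are not separate finds. TGACTCA occurs in none of these windows. Sequence outside the windows was not searched, so that a motif absent here, such as the CArG box in *Fos*, may lie farther from the start.

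The spread among mice of one age was described by the SD of log2(normalized count + 0.5) within each group. Over all tested genes the median SD was 0.156 in young and 0.157 in old aortae. All 10 members were above this median in young aortae, from 0.22 for *Jund* to 0.96 for *Fosl1*, whose low count adds counting error. *Fos* (0.70), *Jun* (0.73) and *Egr3* (0.82) had larger SDs than 95.8%, 96.3% and 97.7% of all tested genes. In old aortae *Fos* was again high (0.84, above 98.3% of genes), but *Egr3* (0.20, above 61.4%) was not, and *Jund* (0.07) exceeded only 10.1% of genes.

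The SD was smaller in old than in young aortae for 8 members, the exceptions being *Fos* and *Fosl2*, whereas 7352 of the 14614 tested genes had a larger SD in old aortae. Without old replicate 3 it was smaller for all 10, and without young replicate 1 for 6. *Jund* ranged from 3753 to 5581 normalized counts in young and from 3281 to 3711 in old aortae, with coefficients of variation of 15.0% and 4.93%. *Egr3* had coefficients of variation of 63.8% and 13.0%, and *Jun* of 50.9% and 27.7%. The difference of log2 SDs, old minus young, was -0.62 for *Egr3* and -0.32 without young replicate 1, and for *Jun* it was -0.26 and -0.52 without old replicate 3. An exact permutation test of the absolute deviations called 0 of the 14614 genes after adjustment, and 64 genes had an unadjusted p below 0.05 (62 to 66 with other pseudocounts or scaling, 326 to 542 without 1 mouse). None of the members was among the 64, with *Jund* the lowest (exact permutation, p = 0.135). Without 1 mouse, the unadjusted exact p of *Jund* was 0.0317 (young replicate 1 left out), 0.00794 (young replicate 3) or 0.0556 to 0.230 (any other mouse). That of *Egr3* was 0.00794 without young replicate 2, 4 or 5 and 0.262 to 0.397 without any other mouse. With all mice the smallest p of any gene in this test was 0.0476, so that no gene could pass the adjustment. The reason is that the middle mouse of each group of 5 has a deviation of 0. A group short of 1 mouse has no single middle mouse, so p values without 1 mouse are not directly comparable with those of all mice.

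**Figure D4:**
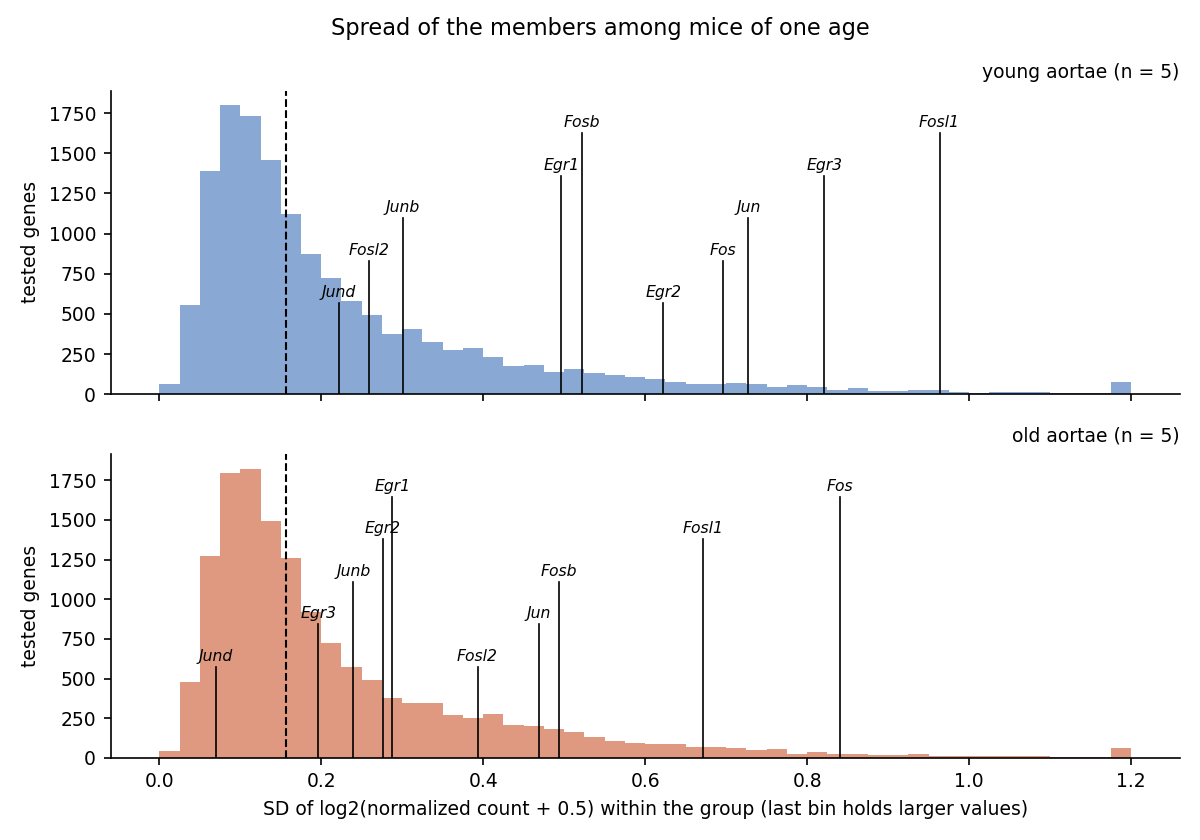
Histogram of the within-group SD on the log2 scale (x axis) over the 14614 tested genes (y axis, number of genes), young above and old below, with the median as a dashed line and the members marked by lines whose height carries no value. *Fos* stays far right in both groups, and *Jund* moves from 0.22 to 0.07.

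Within the young group the same mice were high or low for most members. Young replicate 1 had the highest level of 6 members (*Fos*, *Fosb*, *Jun*, *Egr1*, *Egr2* and *Egr3*), and young replicate 2 had the lowest level of 7. Young replicate 3 was first or second among the young for 8 members. Young replicate 1 was also lowest for *Fosl1*, and young replicate 2 was highest for *Jund*. No old library was highest for as many members as young replicate 1 or lowest for as many as young replicate 2. This difference between the groups was not tested. Old replicate 3 was lowest for *Fos*, *Fosb*, *Fosl2*, *Jun* and *Jund* but highest for *Egr2* and *Egr3*, and old replicate 2 was highest for *Fos*, *Fosb*, *Jun* and *Junb* but lowest for *Fosl1*, *Egr2* and *Egr3*.

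After the group means were removed, the log2 levels of *Fos* and *Fosb* had a Pearson correlation of 0.90 over the 10 libraries, and those of *Fos* and *Jun* of 0.83. *Egr2* and *Egr3* had a correlation of 0.88, and *Egr1* of 0.66 with *Fos*. The correlation with *Fos* was 0.52 for *Fosl2*, 0.45 for *Egr3* and only 0.23 for *Egr2* (Spearman 0.20). *Jund* (-0.13) and *Fosl1* (-0.55) did not follow *Fos*, and *Junb* had 0.45, with a Spearman coefficient of 0.09 and a Pearson correlation of 0.73 without young replicate 1 and old replicate 3. These values are descriptions, since the genes share libraries, size factors and cell makeup.

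**Figure D5:**
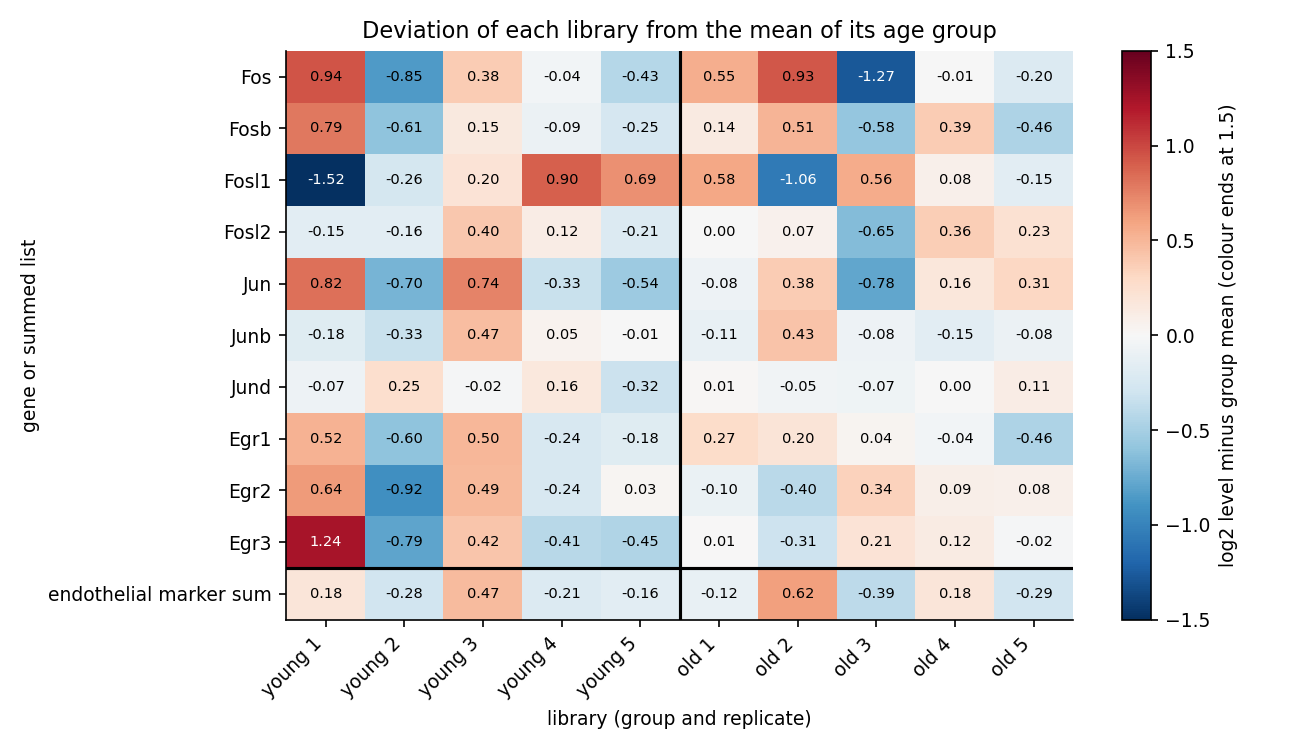
Deviation of each library (columns) from the mean of its age group on the log2 scale, for the 10 members and for the sum of 8 endothelial marker genes (rows). Red is above and blue below the group mean. Young 1 and young 3 are high and young 2 is low for *Fos*, *Fosb*, *Jun* and the Egr genes, and old 3 is lowest for *Fos* at -1.27.

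Of 14542 genes compared with *Fos* in this way over the 10 libraries, the 10 most alike outside the AP-1 and Egr genes were *Nr4a1*, *Tal1*, *Btg2*, *Nos3*, *Ccn1*, *Klf2*, *Nova2*, *Fgd5*, *Sox17* and *Afap1l2*. Their correlations ranged from 0.93 to 0.97, and without the 2 libraries in which *Fos* was farthest from its middle, young replicate 1 and old replicate 3, from 0.88 to 0.95. *Nr4a1* and *Btg2* (0.97 and 0.96) are immediate early genes themselves, and *Ccn1* (0.93) codes for a matrix protein with the same quick response. *Nos3* (0.94), the nitric oxide synthase of endothelium, *Klf2* (0.93), its flow-responsive factor, and *Tal1* (0.96), *Sox17* (0.93) and *Fgd5* (0.93) are known for their expression in endothelial or blood-forming cells. None of the 10 was called by edgeR between the ages, with adjusted p from 0.104 to 0.472, and 216 genes had a correlation above 0.8. Of the 35 other immediate early genes described below, 7 were above 0.8, *Klf2* among them, against 1 of 8 endothelial markers. The median correlation of these 35 genes with *Fos* was 0.46 (from -0.58 to 0.97).

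Markers of endothelium varied along with *Fos* in these libraries. So did those of Schwann cells (median correlation 0.63, from -0.37 to 0.79) and adipocytes (0.50, from 0.34 to 0.78). The median was negative for fibroblast (-0.47), striated muscle (-0.39) and smooth muscle (-0.35) markers. Of 8 endothelial markers, *Cdh5* had the highest correlation with *Fos* (0.88), *Erg* the lowest (-0.14), and the median was 0.76, against -0.01 over all genes compared. The markers summed to 29617, 21431, 36152, 22583 and 23337 normalized counts in young replicates 1 to 5. In old replicates 1 to 5 they summed to 14834, 24662, 12255, 18225 and 13127. The sum was lower in the old group (16621 ± 5042 against 26624 ± 6202, exact permutation, p = 0.0317), with overlap from old replicate 2. The exact p was 0.0556 without young replicate 3, 0.0714 without old replicate 3 and 0.0635 without old replicate 1, 4 or 5. *Pecam1*, the most abundant of them, had 10989 ± 2371 and 6626 ± 2076 normalized counts (log2 fold change -0.72, edgeR adjusted p = 0.0554), and *Tek* alone was called by edgeR (-0.87, SE 0.23, adjusted p = 0.0381), whereas DESeq2 called 5 of the 8. All 8 were detected in every library. The sum rested mostly on *Pecam1* and *Vwf*. Of the 8, 7 had a negative log2 fold change, only -0.04 for *Kdr*, and *Erg* had a positive one (0.14, edgeR adjusted p = 0.393). The part of the endothelial share in the levels of *Fos*, *Fosb* and *Jun* was not tested. The mitochondrial share of reads was 6.17%, 4.63%, 6.22%, 4.80% and 4.50% in young replicates 1 to 5. In old replicates 1 to 5 it was 6.51%, 11.0%, 5.19%, 5.49% and 5.55%. It was thus higher in young replicates 1 and 3 and old replicates 1 and 2, as *Fos* was within each group, and lowest of the old in old replicate 3. Its relation to *Fos* was not tested.

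Other cell type markers were set beside the members in the same way. Of 8 smooth muscle markers edgeR called 1 (*Smtn*, 0.29, SE 0.07, adjusted p = 0.0217), and *Acta2*, the most abundant, averaged 390587 ± 31099 in the young and 348817 ± 33917 in the old group. Of 8 macrophage markers 5 rose, and their sum went from 5928 ± 619.7 to 8699 ± 2522 (exact permutation, p = 0.00794, the smallest possible). The log2 ratio of these sums was 0.55, and 0.36 without old replicate 3 (exact permutation, p = 0.0159). *Fcgr1* (0.98, SE 0.23, edgeR adjusted p = 0.0142), *Cd68* (0.83, SE 0.19, edgeR adjusted p = 0.0155) and *Adgre1* (0.80, SE 0.20, edgeR adjusted p = 0.0235) led them, and *Csf1r*, the most abundant, was not called. Their correlation with *Fos* had a median of -0.33. The 8 adipocyte markers, led by *Car3* (7656 ± 4924 and 3427 ± 1196 normalized counts), had a median log2 fold change of -0.92 with 0 called by edgeR, 4 at an unadjusted p below 0.05 and 2 called by DESeq2. Young replicate 1, which was high for many members, had the largest adipocyte sum, 36615 normalized counts against 6781 to 19292 in the others. The part of these cells in the members' levels was not tested.

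For the remaining marker lists, edgeR called *Lum* higher (0.58, adjusted p = 0.00296) and *Pi16* lower (-0.58, adjusted p = 0.0147) among 8 fibroblast markers, of which *Dcn* was the most abundant. In the Schwann cell list *Pmp22*, its most abundant gene, fell (-0.40, adjusted p = 0.00379) and *Prx* rose (0.38, adjusted p = 0.0254). In the striated muscle list *Tnnt2* rose (1.74, adjusted p = 0.0116) and *Actc1* fell (-2.02, adjusted p = 0.0165), and of the lymphocyte markers, all at low counts, *Cd4* rose (1.95, adjusted p = 0.00269). No red cell marker was called by edgeR, DESeq2 or limma-voom, and 0 had an unadjusted p below 0.05, with *Hbb-bs* the most abundant.

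Partners and corepressors of these factors were examined next. Of 12 genes for other AP-1 partners of the Atf, Batf, Jdp and Maf groups, *Maf* rose (0.46, SE 0.07, edgeR adjusted p = 0.00191) and *Atf3* fell, and the median log2 fold change was 0.11. This count of 1 in each direction was near the shares over all tested genes, 6.48% higher and 4.99% lower. *Atf3*, a stress-induced factor that pairs with Jun proteins, had 3654, 2122, 4253, 2478 and 1117 normalized counts in young replicates 1 to 5. It had 437, 532, 315, 769 and 734 in old replicates 1 to 5. Its fall of all old aortae below all young ones was larger than that of any member (log2 fold change -2.28, SE 0.39, edgeR adjusted p = 0.00596). *Nab2*, which binds Egr proteins and holds them back and is itself an Egr target, rose from 903 ± 56.6 to 1149 ± 92.6 normalized counts (0.36, SE 0.07, edgeR adjusted p = 0.00499), and *Nab1* was not called (log2 fold change 0.15, SE 0.06, edgeR adjusted p = 0.119). *Egr4*, the remaining Egr gene, had 1 read in each age group and was not tested.

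Upstream of these genes, 19 kinases and transcription factors of the serum response, cAMP and MAP kinase pathways were examined. EdgeR called 0 of them, with 4 higher and 4 lower at an unadjusted p below 0.05 (2054 and 1848 of all 14614), DESeq2 called 1 and limma-voom 0, and limma-voom with sample quality weights called 3. Their median log2 fold change was 0.01. *Srf*, the factor that binds the CArG box, averaged 2065 ± 115 in the young and 1846 ± 49.5 in the old group, without overlap (log2 fold change -0.15, SE 0.05, edgeR adjusted p = 0.0749). It is named for its role and was chosen after its values were seen.

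Of 36 other immediate early genes, 35 were tested, of which 2 rose and 6 fell, and 26 had a negative log2 fold change (median -0.25). Over all tested genes, 6.48% were called higher and 4.99% lower, and 7196 of 14614 had a negative log2 fold change. *Zfp36l2*, which destabilizes short-lived RNAs, rose from 1779 ± 138 to 2775 ± 300.3 normalized counts (0.65, SE 0.08, edgeR adjusted p = 0.000241). *Dusp6*, a phosphatase that ends ERK signalling, rose by 0.42 on the log2 scale (SE 0.12, edgeR adjusted p = 0.0402). *Errfi1*, an inhibitor of the EGF receptor, showed the largest fall of the list, from 4762 ± 1294 to 1840.5 ± 492.6 (-1.36, SE 0.23, edgeR adjusted p = 0.00447). *Ier5* (-0.98, SE 0.21, edgeR adjusted p = 0.0133), *Gadd45g* (-0.89, SE 0.22, edgeR adjusted p = 0.0252), *Ccn2* (-0.76, SE 0.17, edgeR adjusted p = 0.0149) and *Trib1* (-0.45, SE 0.09, edgeR adjusted p = 0.00757) also fell.

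Genes known as targets were counted from lists of textbook targets, which other factors also control. Of 16 AP-1 targets 13 were tested, with 5 higher and 0 lower in edgeR (2 lower at an unadjusted p below 0.05, and 2 lower in DESeq2) and a median log2 fold change of 0.38. *Mmp3*, a matrix protease, rose from 3613 ± 556 to 7689.8 ± 1297 normalized counts (1.10, SE 0.13, edgeR adjusted p = 0.000251). *Hmox1* (0.38, adjusted p = 0.0287), *Ccnd1* (0.46, adjusted p = 0.0347), *Mmp9* (0.73, adjusted p = 0.0465) and *Ccl2* (2.02, adjusted p = 0.0195) were the others called by edgeR. Without young replicate 2 edgeR called 1 of these targets. Of 12 Egr1 targets 4 rose, namely *Fgf2* (0.62, SE 0.10, edgeR adjusted p = 0.00183), *Nab2*, *Tgfb1* (0.31, SE 0.07, edgeR adjusted p = 0.0148) and *Pdgfb* (0.40, SE 0.10, edgeR adjusted p = 0.0210), and *Vegfa* fell (-0.45, SE 0.10, edgeR adjusted p = 0.0133), with a median of 0.03. For both target lists, the shares over all tested genes were 6.48% higher and 4.99% lower.

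Heat shock genes, which like the AP-1 genes respond to stress of cells and tissue, were higher in young aortae. Of 11 tested, edgeR called 8 lower in old aortae, with a median log2 fold change of -0.89, and DESeq2 called all 11. All 11 are among the genes that the paper lists as lower in these same old aortae. The fall of the list is therefore not a separate result. *Hspa1a* (10309 ± 6245 and 1331 ± 819 normalized counts in young and old, edgeR adjusted p = 0.0134) and *Hspa1b* (11634 ± 7179 and 1456 ± 1000.1, edgeR adjusted p = 0.0145) differed most, and *Bag3* (-0.89), *Dnajb1* (-1.44) and *Hsp90aa1* (-0.76) also fell (edgeR adjusted p = 0.0279, 0.0300 and 0.0300). Without young replicate 4, old replicate 2 or old replicate 3, edgeR called 2 of the 11. The list summed to 62349, 160296, 102493, 128724 and 94180.3 normalized counts in young replicates 1 to 5, so that young replicate 1, the highest for *Fos*, was the lowest and young replicate 2, the lowest for *Fos*, was the highest. In old replicates 1 to 5 the sums were 71406, 48311, 42208, 51386 and 52322 (exact permutation, p = 0.0159). The median correlation of these genes with *Fos* within the groups was -0.16. Their part in the difference of the members between the ages was not tested.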

How the data were processed

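Each of the 10 aortae gave 1 library of poly(A) RNA. The authors filtered reads with fastp 0.20.0, aligned them with STAR 2.7.0f to GRCm38 with GENCODE M22 and made the deposited counts per gene with featureCounts of Subread 1.6.4. The strand setting and the time from death to lysis of each aorta are not given in the sources used here. From the counts, edgeR 4.0.16 in R 4.3.3 was run on the whole table (filterByExpr, TMM scaling, robust quasi-likelihood test, Benjamini-Hochberg adjustment). Levels are counts divided by size factors of DESeq2 1.42.0. Positions, exonic lengths and overlaps came from GENCODE M21 of the same build. Sums of markers were compared by exact permutation over all splits of the mice. Named genes outside the 10 were called genes of each list (up to 5 per direction, 3 for markers) and the most abundant marker. *Egr4*, *Nab1*, *Nab2*, *Atf3*, the 10 genes most like *Fos* and the genes that lie opposite a member were also named. *Srf*, *Cdh5*, *Erg*, *Kdr* and *Vwf* were added after their values were seen. The members and lists were chosen with earlier results of these data known. The 18 alternatives were DESeq2, limma-voom (limma 3.58.1) with and without quality weights, 3 other scalings, 2 other filters and the omission of each mouse. The scripts were tried on simulated counts first. With 5 mice per age, small differences may go unseen, and RNA levels do not give protein levels or the activity of AP-1 and Egr proteins. The paper states that both age groups were killed at the same time, and the hour for each mouse is not given. Time of day, handling and cell makeup were not tested.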

Additional observations from a re-analysis of the deposited data

Results flagged for a closer look

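In 34 sets of 5 aortae (the 10 members, 3 family sums, the mitochondrial share and 3 summed marker or heat shock lists, in each age group), the gap between the most extreme aorta and its neighbour was divided by the range of the set. It exceeded the critical value of Dixon's test in 3 of them, and chance alone gives about 1 in 20. *Junb* in old replicate 2 had a ratio of 0.897, with 2668 normalized counts against 1876 in the next aorta, and this aorta lay farther from the young ones than the other old aortae did. The mitochondrial share of the same library had a ratio of 0.774, with 11.0% against 6.51%. The summed macrophage markers of old replicate 3 had a ratio of 0.779, with 13108 against 8314 normalized counts. Other marker sums were not screened, among them that of lymphocyte markers, with 428 in old replicate 3 against 137 in the next aorta. Among the 20 sets of single members, *Junb* in old aortae was the only one past the critical value. Why these libraries stood apart was not tested.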

How the results depend on the processing

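For the 10 members, edgeR called 1 higher and 3 lower. DESeq2 and limma-voom each called 2 higher, limma-voom with sample quality weights 3, and edgeR without 1 mouse 1 to 3. The number called lower was 4 with DESeq2, 3 with limma-voom with or without weights, 1 without the low-count filter, 1 at an adjusted p below 0.01 and 1 to 3 without 1 mouse. Among all genes 947 were called higher and 729 lower, which became 1240 and 1085 with DESeq2 and 954 and 741 with limma-voom. These counts were 1432 and 1211 with sample quality weights, 952 and 649 without the low-count filter and 395 and 263 at 0.01. Without 1 mouse 658 to 1228 were higher and 474 to 1139 lower.

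The log2 fold change of *Fosl1* turned negative without young replicate 1 (-0.14), young replicate 2 (-0.01), old replicate 1 (-0.05) or old replicate 3 (-0.04), with a range of -0.14 to 0.34. The number of members with a larger log2 SD in old aortae was 2 with all mice and 0 to 4 without 1 mouse. The difference of SDs, old minus young, changed sign for *Fosb* without young replicate 1 (0.18), young replicate 2 (0.03) or old replicate 1 (0.04), for *Fosl1* without young replicate 1 (0.15) and for *Junb* without young replicate 3 (0.07). Without old replicate 3 it changed sign for *Fos* (-0.18) and *Fosl2* (-0.0937). The ranges without 1 mouse were -0.18 to 0.31 for *Fos*, -0.11 to 0.18 for *Fosb*, -0.60 to 0.15 for *Fosl1*, -0.0937 to 0.25 for *Fosl2* and -0.27 to 0.0665 for *Junb*.

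Of the upstream genes limma-voom with quality weights called 2 higher and 1 lower, DESeq2 called 1 lower, and edgeR without 1 mouse called 0 to 1 in each direction. Of the other immediate early genes 1 to 3 were higher without 1 mouse and 1 at 0.01, and 12 were lower with DESeq2, 10 with quality weights and 2 at 0.01. Of the AP-1 targets 2 were higher without the filter, 1 at 0.01 and 1 to 5 without 1 mouse, and 2 were lower with DESeq2, 1 with limma-voom, 2 with quality weights, 1 without the filter and 0 to 2 without 1 mouse. Of the Egr1 targets 2 were higher and 0 lower at 0.01. Of the heat shock genes 3 were lower without the filter, 0 at 0.01 and 2 to 11 without 1 mouse. The log2 ratio of the summed endothelial markers was -0.68, and -0.87 to -0.54 without 1 mouse.

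With the replicate number as a replicate block, edgeR called 2 members higher and 1 lower, 467 of all genes lower, 0 AP-1 partners lower, 2 Egr1 targets lower and 0 heat shock genes lower. Replicates of the same number did not resemble each other (correlations -0.29, -0.06, 0.10, -0.04 and 0.13), so that the block removes degrees of freedom without a known pairing. For all these differences between settings, the cause was not tested.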
